A study of Mus musculus with 150 samples.

Results

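The genes described here are the inhibitors of cyclin-dependent kinases Cdkn1b, Cdkn1c, Cdkn2a, Cdkn2b, Cdkn2c and Cdkn2d, together with the pocket protein genes Rb1, Rbl1 and Rbl2. These 9 genes were chosen by name. All 9 were found among the 24341 rows of the bulk RNA-seq table and among the 31175 genes of both single-cell tables.

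The study removed p53 from airway epithelium of the mouse lung. Bulk RNA-seq was made from 3 wild-type and 3 knockout libraries. These cells were GFP+ and EpCAM+ and negative for CD31, CD34, CD45 and the dead-cell dye 7AAD, and all animals carried Scgb1a1-CreERTM and Rosa26-mT/mG. The wild-type animals were p53+/+ and the knockout animals p53flox/flox, aged 8 to 12 weeks. Tamoxifen turns on the Cre in cells that use the Scgb1a1 promoter. The GFP mark and the p53 deletion are therefore limited to cells in which Cre acted and to their descendants. Such cells need not all be club cells, and markers of other cell types were also measured in the bulk libraries, as given below. The protocol places the sort 70 days after tamoxifen, while the sample titles say day 30, and which is right cannot be told from these labels. Single cells were captured on 1 Fluidigm C1 chip per genotype, labelled wild type and p53-/-. The protocol gives 250 mg/kg tamoxifen for RNA-seq, and it leaves unstated if the cells on the chips had been cultured and if the deletion was floxed or germline. Nothing in the labels says that the bulk libraries of a group came from separate animals, so p-values here reflect how much these libraries vary, which may be technical.

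Cyclin-dependent kinases drive a cell from G1 into DNA synthesis by phosphorylating the pocket proteins, which otherwise hold E2F transcription factors silent. The Cip/Kip inhibitors (Cdkn1a, Cdkn1b and Cdkn1c, encoding p21, p27 and p57) bind several cyclin-kinase complexes, while the INK4 inhibitors (Cdkn2a to Cdkn2d) block the kinases that pair with D-type cyclins. Cdkn1a is the classical p53 target of this group, Cdkn1c is an imprinted gene, and the Cdkn2a locus encodes both p16 and, from an upstream first exon, the p53 activator ARF. Much of the control of p27 acts on the protein, which RNA levels do not show.

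Promoter windows are shown because they carried letters of an E2F-binding site, the sequence through which pocket proteins act on their targets. RefSeq promoter windows (GRCm38.p6, 250 bases before to 50 after a transcript start) were matched for 7 of the 9 genes, with 9 windows in all. The spellings searched on both strands were TTTCCCGC, TTTCGCGC, TTTGCCGC, TTTGGCGC and TTCCCGCC. Capitals mark the match. The first sequence is the more upstream of 2 Cdkn2a starts (chr4:89294570-89294869, minus strand), with the match beginning 99 bases before the start. The second is the Rbl1 start (chr2:157204485-157204784, minus strand), with the match beginning 18 bases before it.
Cdkn2a upstream start: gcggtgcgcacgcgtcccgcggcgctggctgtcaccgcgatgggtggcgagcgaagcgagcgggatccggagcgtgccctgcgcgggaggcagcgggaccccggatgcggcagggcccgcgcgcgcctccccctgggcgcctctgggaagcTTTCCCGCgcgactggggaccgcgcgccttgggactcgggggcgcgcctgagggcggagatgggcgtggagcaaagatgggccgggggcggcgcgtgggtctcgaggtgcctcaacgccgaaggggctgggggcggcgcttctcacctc
Rbl1: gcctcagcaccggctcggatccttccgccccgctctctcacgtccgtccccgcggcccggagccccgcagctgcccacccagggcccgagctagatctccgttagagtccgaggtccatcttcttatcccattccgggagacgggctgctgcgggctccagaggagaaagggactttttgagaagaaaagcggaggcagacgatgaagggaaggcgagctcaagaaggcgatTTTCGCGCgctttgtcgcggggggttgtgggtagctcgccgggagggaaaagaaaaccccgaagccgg
A match was present in 2 of the 9 windows, against 3.89% of all 32851 windows of this length in the table. It is a match of letters and not a measured site. Rbl1 and Cdkn2a had different levels in these data, as given below: Rbl1 was measured in every bulk library and Cdkn2a in none.

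The genotype labels were checked first with Trp53, the gene encoding p53. In bulk it stood at 16.6, 22.2 and 21.7 FPKM (a level scaled to transcript length and library size) in the wild-type libraries 1, 5 and 6, and at 8.63, 9.98 and 7.56 in the knockout libraries 7, 8 and 10. The groups did not overlap, and the knockout libraries kept 0.432 of the wild-type mean. On the chips the order went against the label: Trp53 reached a TPM (the corresponding scaled level of the single-cell tables) of 1 or more in 4 of the 66 cells on the wild-type chip and 16 of the 61 on the other chip. RNA of a deleted allele can still be counted outside the deleted part, so Trp53 RNA is a weak check of the labels in either assay. The cause of the order on the chips was not tested. Cells of the second chip are called "cells labelled knockout" throughout.

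The bulk libraries had 11735 to 11925 genes at FPKM of at least 1. Of all 11957 genes tested, 1 (0.00836%) passed an adjusted p of 0.05 with limma. Wild-type library 1 stood apart: its 12 ciliated cell markers summed to 612 FPKM, near the knockout range of 552 to 971 and above 179 and 160 in the other wild-type libraries. Its club cell markers, 12 of the 14 listed, summed to 33700 FPKM, against 64080 to 81209 in the other 5 libraries. Summed alveolar type 2 markers (11 of the 14 listed) ranged from 5849 to 10924 FPKM in wild type and from 4384 to 5087 in knockout. Immune markers ranged from 82 to 119 and from 39.96 to 66.8. Markers with an entry marked in place of a value were left out of these sums. None of these lists had a gene at the lowest table value in every library. Basal cell markers summed to less than 1 FPKM in each library.

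Cdkn1c was the most abundant of the 9 genes in bulk and the only one higher in knockout without overlap. It lies on chr7:143458339-143461050 (GRCm38, GENCODE M21, minus strand). Its level was 21.8, 20.2 and 22.1 FPKM in wild type and 32.7, 29.8 and 38.1 FPKM in knockout. Every knockout library exceeded every wild-type library, and the wild-type values lay within 2 FPKM of each other. The mean was 21.4 ± 1.03 FPKM in wild type and 33.5 ± 4.19 in knockout (SD, n = 3 each), 1.57-fold higher. On the log2(FPKM + 1) scale, which understates changes of low genes, the difference was 0.62 ± 0.11 (SE), with a 95% interval of 0.36 to 0.89. It did not pass limma's test over all genes (adjusted p = 0.209, rank 52 by p). The exact permutation test of 3 against 3 libraries gave 0.1, the smallest p it can give. Of all genes tested, 9.04% were higher in knockout with no overlap. Without wild-type library 1 the difference was 0.63 with an adjusted limma p of 0.041, so that call depended on a library. In that setting 408 of the 11957 genes passed, 337 of them higher in knockout, against 1 with all libraries. Library 1 differed from the other wild-type libraries in several marker sums, and its Cdkn1c level, 21.8 FPKM, lay between theirs. All 12 ciliated markers tested had a positive bulk difference, 10 of them with unadjusted limma p under 0.05 (7.04% of all genes were higher at that p), and the part of this and the other marker shifts in the Cdkn1c difference was not tested. In bulk samples, fewer cells of a type and less RNA per cell cannot be told apart.

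Cdkn1b, encoding p27, was the least abundant member that was measured in bulk (chr6:134920401-134925513, plus strand). Its level was 2.09, 2.19 and 2.98 FPKM in wild type and 1.91, 1.79 and 1.49 in knockout. The knockout libraries all lay below the wild-type ones, but the gap between the nearest libraries was smaller than the spread within either group. The difference was -0.32 ± 0.15 (log2, SE; adjusted limma p = 0.425), and the mean was 28.5% lower. Without wild-type library 6, the highest, the difference was -0.20. Genes lower in knockout with no overlap made up 10.2% of all genes tested.

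Cdkn1a, the remaining Cip/Kip gene, stood at 37.6, 40.02 and 63.9 FPKM in wild type and at 19.6, 21.3 and 18.0 FPKM in knockout. The groups did not overlap, and the mean was 2.40-fold lower in knockout (log2 difference -1.18 ± 0.20, adjusted limma p = 0.203). The order of Cdkn1c and Cdkn1a was therefore different in the 2 genotypes. The ratio of Cdkn1c to Cdkn1a was 0.58, 0.505 and 0.346 in the wild-type libraries and 1.67, 1.40 and 2.11 in the knockout libraries. Cdkn1a exceeded Cdkn1c in every wild-type library and was below it in every knockout library. The ratio of Cdkn1c to Cdkn1b was 10.4, 9.25 and 7.42 in wild type and 17.2, 16.7 and 25.6 in knockout. Summed over the 3 Cip/Kip genes, the level was 61.4, 62.4 and 89.1 FPKM in wild type and 54.3, 52.96 and 57.6 in knockout. Each of these 3 comparisons gave an exact permutation p of 0.1. For the ratios this followed from their genes, each of which already separated the groups, so it is no further support.

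**Figure D1:**
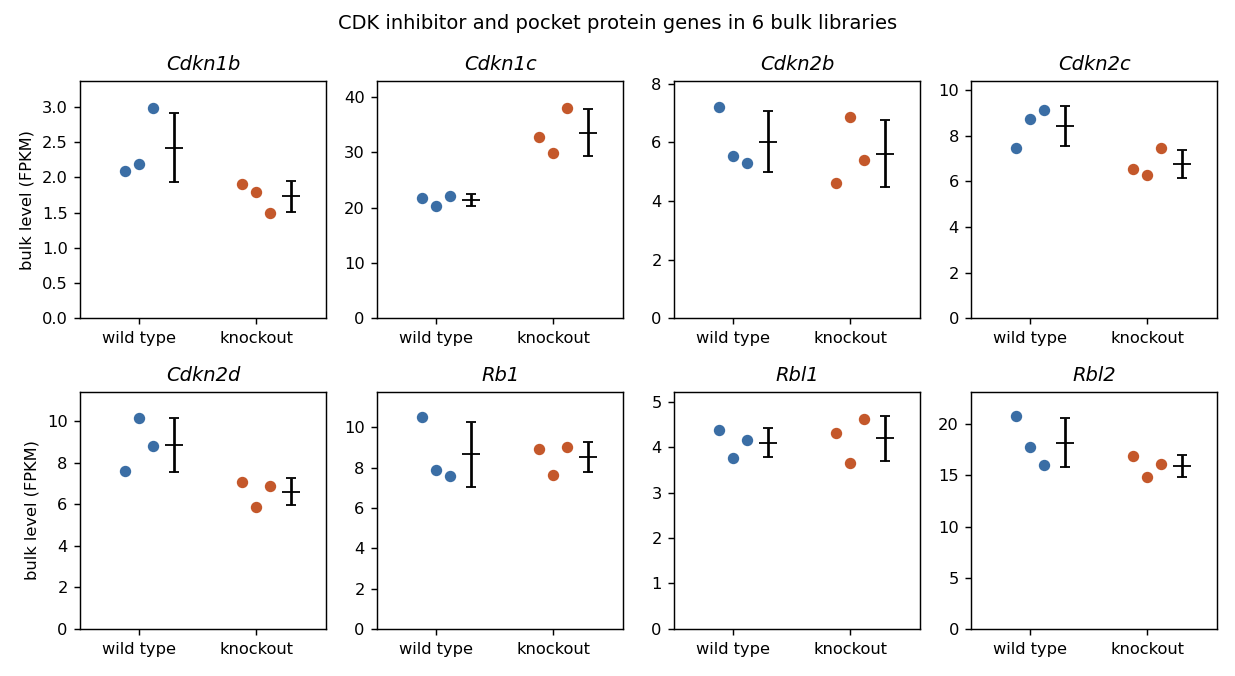
Bulk level in FPKM (vertical axes, each from 0) of the 8 measured genes, with 1 point per library, 3 wild-type and 3 knockout, and black marks for the mean and SD. Cdkn1c lies at 20.2 to 22.1 in wild type and 29.8 to 38.1 in knockout, Cdkn1b and Cdkn2d are lower in every knockout library, and the other genes overlap.

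Cdkn2a was listed at 0.01 FPKM, the lowest value of the table, in all 6 libraries, so neither p16 nor ARF transcripts were measured in bulk. The gene lies on chr4:89274471-89294653 and 11645 bases separate it from its neighbour Cdkn2b, encoding p15 (chr4:89306299-89311039, also on the minus strand). Cdkn2b was measured at 7.21, 5.54 and 5.30 FPKM in wild type and at 4.62, 6.84 and 5.38 in knockout. These ranges overlapped almost completely (-0.09 ± 0.17, 95% interval -0.49 to 0.31, adjusted limma p = 0.871). The neighbours on one locus thus differed in level in every library.

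Cdkn2d, encoding p19Ink4d, was lower in knockout without overlap. It was at 7.61, 10.2 and 8.80 FPKM in wild type and at 7.08, 5.88 and 6.88 FPKM in knockout. The mean was 25.4% lower (-0.37 ± 0.13, adjusted limma p = 0.342). Cdkn2c, encoding p18, was at 7.46, 8.71 and 9.12 FPKM in wild type and at 6.54, 6.29 and 7.47 FPKM in knockout. Here wild-type library 1 and knockout library 10 were nearly equal and the other libraries were apart (-0.28 ± 0.12, adjusted limma p = 0.379). Summed over Cdkn2b, Cdkn2c and Cdkn2d, the INK4 level was 22.3, 24.4 and 23.2 FPKM in wild type and 18.2, 19.01 and 19.7 FPKM in knockout. The sums did not overlap, and the knockout mean was 0.815 of the wild-type mean (exact permutation p = 0.1). Without wild-type library 1, Cdkn2c also separated, so that 3 members were lower without overlap (17.3% of all genes under that setting) and 1 was higher (18.3%).

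No pocket protein gene separated the groups. Rb1, the retinoblastoma gene, was at 10.5, 7.87 and 7.62 FPKM in wild type and at 8.91, 7.65 and 9.01 in knockout (-0.01 ± 0.14, adjusted limma p = 0.981). Rbl1, encoding p107, was at 4.38, 3.76 and 4.16 FPKM in wild type and at 4.31, 3.65 and 4.62 in knockout (0.02 ± 0.13, adjusted limma p = 0.958). For both, the group means differed by less than the spread within either group. The 95% intervals, -0.35 to 0.33 for Rb1 and -0.27 to 0.32 for Rbl1, leave room for small differences either way. Rbl2, encoding p130, the pocket protein typical of resting cells, was at 20.8, 17.8 and 16.03 FPKM in wild type and at 16.9, 14.8 and 16.1 in knockout (-0.17 ± 0.12, adjusted limma p = 0.576). Without wild-type library 1 the difference was -0.08. Rbl2 was the most abundant pocket protein transcript in all 6 libraries.

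Across the 9 genes, 8 passed the filter on low values and none passed the adjusted test. At an unadjusted limma p under 0.05, 1 was higher (Cdkn1c) and 2 were lower (Cdkn2c and Cdkn2d), against 7.04% and 6.06% of all genes tested (13.1% in either direction). The groups did not overlap for 3 of the 8, against 19.3% of all genes in either direction. The median difference of the 8 was -0.13, beside 0.01 over all genes. In wild type the order of bulk FPKM was Cdkn1c (21.4), Rbl2 (18.2), Cdkn2d (8.86), Rb1 (8.67), Cdkn2c (8.43), Cdkn2b (6.02), Rbl1 (4.10) and Cdkn1b (2.42). This order did not hold in the other assay: over the single cells described below, mean levels of Cdkn1b and Cdkn1c were 15.4 and 15.3 TPM. The ratios of Cdkn1c to Cdkn1b above are therefore ratios of bulk FPKM only. Cdkn1c and Rbl2 overlapped in wild type but not in knockout. Cdkn2d, Rb1 and Cdkn2c overlapped with one another, while Cdkn2b, Rbl1 and Cdkn1b were each apart from their neighbours in wild type.

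**Figure D2:**
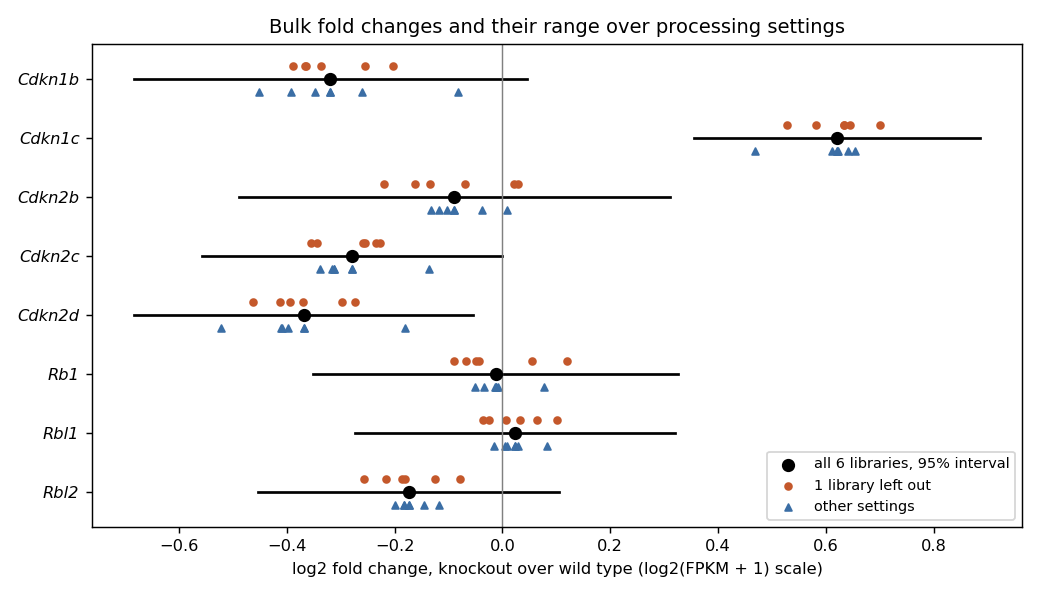
Bulk log2 fold change of each gene, knockout over wild type (horizontal axis, log2(FPKM + 1) scale), with black points and 95% intervals for all 6 libraries, orange points with 1 library left out and blue triangles for other settings. Cdkn1c stays between 0.47 and 0.70 in all 13 alternatives, and Rb1, Rbl1 and Cdkn2b lie on both sides of 0.

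The rest of the pathway was read from lists of named genes. Of 12 tested G1 cyclins and kinases, 7 had a positive difference and none passed the adjusted test. Ccnc, encoding cyclin C, was at 14.2 ± 1.46 FPKM in wild type and 20.6 ± 0.841 in knockout (here and below ± is the SD of 3 libraries), without overlap (log2 difference 0.51, adjusted limma p = 0.276). Ccnd1, encoding cyclin D1, whose kinases the INK4 proteins block, was at 47.9 ± 16.9 FPKM in wild type and 63.95 ± 11.1 in knockout, with overlap (adjusted limma p = 0.529). Of 6 tested E2F and DP factors, 3 were positive and none passed; Tfdp1, the partner of E2F in DNA binding, was 10.7% lower without overlap. Of 6 MuvB and DREAM subunits, which join p107 and p130 in a repressor complex, 2 were positive and none passed. Of 18 tested E2F target genes of G1/S, 11 were positive with a median of 0.02, and none passed or separated. Pcna, the sliding clamp of DNA replication, was at 40.5 ± 6.85 FPKM in wild type and 45.3 ± 2.12 in knockout (adjusted limma p = 0.641).

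Regulators of single members were read in the same way. Of 14 tested genes of p27 turnover and FoxO control, 6 were positive, none passed and none separated; Cks1b, a cofactor of the ligase that marks p27 for destruction, was at 12.6 ± 4.83 FPKM in wild type and 15.9 ± 1.81 in knockout. Of 17 tested Polycomb and other regulators of the Cdkn2a locus, 9 were positive and none passed. Id1, a repressor of Cdkn2a, was at 16.5 ± 3.37 FPKM in wild type and 24.8 ± 7.25 in knockout, with overlap (adjusted limma p = 0.379). Of 12 TGF-beta and SMAD genes, which control Cdkn2b in epithelium, 5 were positive, and 3 were lower without overlap, against 10.2% of all genes tested. Tgfb3 was 16.8, 8.78 and 10.8 FPKM in wild type and 5.16, 5.62 and 2.95 in knockout (-1.22 ± 0.28, adjusted limma p = 0.306). Tgfb1 was 3.70 ± 1.67 FPKM in wild type and 1.95 ± 0.453 in knockout, and Smad7, an inhibitory SMAD, 4.19 ± 0.314 and 3.25 ± 0.566. Fibroblast and smooth muscle markers summed to 43.2 to 103 FPKM in wild type and 36.8 to 40.2 in knockout. Of 11 tested immune cell markers, none were positive and 10 were lower without overlap, against the same 10.2%. The part of these marker shifts in the differences of TGF-beta and SMAD genes was not tested.

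The neighbours of Cdkn1c in its imprinted region were also read. Of 10 genes listed, 5 were tested, 2 were positive and none passed. Cd81 was at 191, 138 and 150 FPKM in wild type and at 97.0, 96.6 and 98.5 in knockout, lower without overlap (-0.69 ± 0.14, adjusted limma p = 0.277). Phlda2, a growth-restricting gene that is imprinted with Cdkn1c, was at 6.97 ± 0.599 FPKM in wild type and 5.44 ± 0.517 in knockout, also without overlap. Cd81 and Phlda2 were thus 2 of the 5 tested, against 10.2% of all genes lower without overlap. The part of the shifts in cell type markers in these differences was not tested. Kcnq1 differed by -0.01 ± 0.11.

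For each measured member, the genes most like it over the 6 libraries were found among 8603 genes with a mean of at least 5 FPKM. Cdkn1c was closest to Rnf111 and Numb (Pearson r 0.991 and 0.989 on log2 values), and 1.3% of candidates reached 0.9. Cdkn1b was closest to Ngfrap1 and Cnnm2, Cdkn2b to Wfs1 and Triobp, Cdkn2c to Nosip and Commd3, and Cdkn2d to Mtpap and Ddb2. Rb1 was closest to Prpf18 and Itgav, Rbl1 to Ercc5 and Ephb3, and Rbl2 to Wls and Phkb. These 6 points share their libraries and depth, and the values are a description with no p.

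In single cells, Cdkn1b was the member found most often. After cells with fewer than 1000 genes at TPM of at least 1 were left out, 66 cells remained on the wild-type chip and 61 on the chip labelled knockout, with a median of 3130.5 and 3580 detected genes. Added control RNA (ERCC spike-ins) took a median of 13.2% and 6.28% of the TPM, and up to 79.7% in a wild-type cell. TPM of genes are lowered where this share is high, and its part in the differences between chips was not tested. No test between chips is possible with 1 chip per genotype, and intervals cover counting error only. The off-chip negative control was at 0 for all 9 genes.

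Cdkn1b was detected, that is, had a TPM of 1 or more, in 51 of the 66 on the wild-type chip (77.3%, with 65.3 to 86.7 as exact binomial 95% bounds) and in 56 of the 61 on the chip labelled knockout (91.8%, bounds 81.9 and 97.3). The median level in cells that had it was 14.2 and 13.5 TPM. The share was thus higher in cells labelled knockout by 14.5 points (1.75 to 26.9), while the level in positive cells was nearly equal. More genes of any kind were detected on that chip. Shares within each cell state and in deeper cells are given below, and the part of depth in this difference was not tested. Cdkn1c was detected in 13 of the wild type (19.7%, bounds 10.9 and 31.3) and 16 of those labelled knockout (26.2%, bounds 15.8 and 39.1). Its mean was 6.37 and 24.9 TPM, but one cell labelled knockout held 747 TPM. Without the highest cell of each chip the means were 5.13 and 12.9 TPM, so the ratio moved from 3.90 to 2.50. Cdkn1a was detected in 46.97% of the wild type and 31.1% of those labelled knockout.

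Cdkn2a was detected in no cell of either chip, which leaves an exact binomial 95% upper bound of 5.44% on the wild-type chip and 5.87% on the other (4.55% and 4.92% as a limit of 3 counts). Every other INK4 and pocket protein gene was found in a minority of cells. In wild type, Cdkn2b was found in 6 cells, Cdkn2c in 4, Cdkn2d in 2, Rb1 in 6, Rbl1 in 1 and Rbl2 in 5. Among cells labelled knockout the numbers were 3, 7, 4, 8, 6 and 9, in the same order. Cdkn2b was therefore the one member found in fewer cells labelled knockout, and the interval of each of these differences included 0. At least 1 of the 9 genes was detected in all but 10 cells of the wild-type chip and 2 of the other, and no cell had more than 5. By size, a gene counted as different where the mean log2(TPM + 1) differed by at least 1 and at least 10% of cells of either group had it. This held for 8.17% of 9486 genes, 8.03% higher and 0.137% lower in cells labelled knockout, and for none of the 9 members, of which 5 had enough cells. Their differences were 0.64 for Cdkn1b, 0.53 for Cdkn1c, 0.30 for Rb1, 0.27 for Rbl2 and 0.23 for Cdkn2c, beside a median of 0.25 over all genes. Cdkn1a was lower, by 1.57 on this scale, and Trp53 higher, by 1.16.

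**Figure D3:**
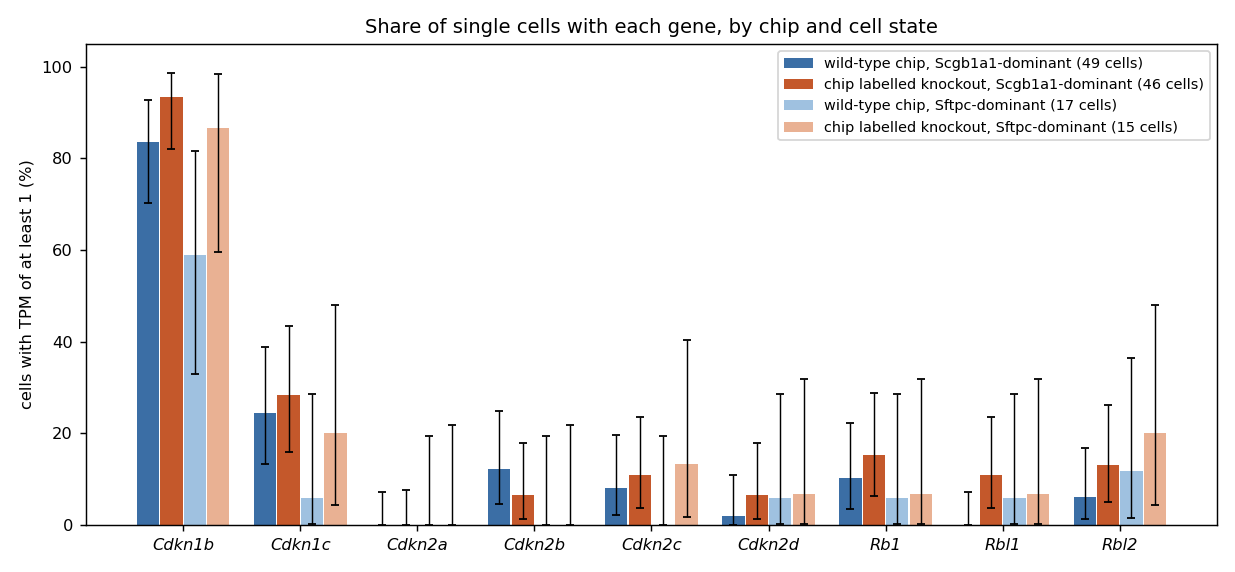
Share of cells with TPM of at least 1 (vertical axis, %) for each gene, by chip and by cell state, with exact binomial 95% intervals that cover counting error. Cdkn1b stands above all other genes in each of the 4 groups of cells, Cdkn2a is at 0, and Cdkn2b is at 0 in both Sftpc-dominant groups.

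Cells were divided by state within each chip into Scgb1a1-dominant cells, where the club cell secretoglobin Scgb1a1 exceeded the alveolar type 2 surfactant gene Sftpc, and Sftpc-dominant cells. The state is a range, and 6 and 15 cells on the wild-type and knockout-labelled chips lay within 4-fold of the cut. Other markers of the 2 cell types gave the same state in 66 of 66 and 58 of 61 cells. Cdkn1b was detected in 41 of 49 Scgb1a1-dominant and 10 of 17 Sftpc-dominant wild-type cells, and in 43 of 46 and 13 of 15 cells labelled knockout. Between chips its share differed by 9.80 points (-3.67 to 23.2) in Scgb1a1-dominant cells. In Sftpc-dominant cells the difference was 27.8 points (-3.55 to 52.6), and each interval included 0. Cdkn1c was detected in 12 and 1 wild-type cells and in 13 and 3 cells labelled knockout. The few Sftpc-dominant cells with Cdkn1c held it at 73.9 TPM in wild type, and at 140, 261 and 747 TPM among cells labelled knockout. No Scgb1a1-dominant cell exceeded 89.3 TPM, and the highest in wild type held 87.1 TPM. Only the Sftpc-dominant cells labelled knockout therefore lay above the Scgb1a1-dominant range. The mean in Sftpc-dominant cells labelled knockout was 76.6 TPM, and 28.7 TPM without the highest cell. That second value comes from 2 cells, in which Sftpc exceeded Scgb1a1 by 1.09-fold and 3.37-fold, so both lay near the cut. The other 12 were at 0.

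Cdkn2b, the TGF-beta responsive INK4 gene, was found in Scgb1a1-dominant cells alone. They numbered 6 of 49 in wild type and 3 of 46 among cells labelled knockout, against 0 of 17 and 0 of 15 Sftpc-dominant cells. For 0 of the 32 Sftpc-dominant cells of both chips the exact binomial 95% upper bound is 10.9% (9.38% as a limit of 3 counts). The share in Scgb1a1-dominant cells was 9.47% (exact bounds 4.42 and 17.2), so the intervals overlap and a difference was not detectable with this number of cells. Rbl1 was found in 0 of 49 and 1 of 17 wild-type cells and in 5 of 46 and 1 of 15 cells labelled knockout. Rbl2 was found in 3 of 49 and 2 of 17, and in 6 of 46 and 3 of 15. Sftpc-dominant cells had fewer detected genes (median 2633 against 3154 in wild type, 3196 against 3824 among cells labelled knockout), and the part of depth was not tested. By size, none of the 5 members with enough cells in wild type and none of the 6 on the chip labelled knockout differed between states, against 14.2% of 9714 genes in wild type (10.1% higher and 4.08% lower in Scgb1a1-dominant cells) and 15.4% of 10386 on the other chip (11% and 4.43%).

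Members were then read beside proliferation transcripts, counted as at least 2 of Mki67, Top2a, Birc5, Ccnb1, Ccnb2, Cdk1, Ccna2, Ube2c and Rrm2. These were present in 7 of the 66 cells of wild type and 15 of the 61 labelled knockout. All 4 cells labelled knockout that held Cdkn2d were among the 15 (26.7%, with exact binomial 95% bounds of 7.79 and 55.1), and none were among the other 46, with an exact upper bound of 7.71% (6.52% as a limit of 3 counts). The levels in those 4 cells were 1.75, 20.3, 110 and 142 TPM. In that order, the cells had 2, 8, 4 and 9 of the proliferation transcripts. In wild type, Cdkn2d was found in 1 of 7 cells with and 1 of 59 cells without these transcripts. Cdkn2c was found in 4 of 15 and 3 of 46 cells labelled knockout, and in 0 of 7 and 4 of 59 wild-type cells. Rb1 was found in 4 of 15 and 4 of 46 cells labelled knockout, and in 1 of 7 and 5 of 59 wild-type cells. Cdkn1c was found in 3 of 15 and 13 of 46 cells labelled knockout, and in 2 of 7 and 11 of 59 wild-type cells. Cells with proliferation transcripts had more detected genes on both chips (median 3927 against 2888 in wild type, 3751 against 3467 among cells labelled knockout). Among cells with at least 2500 detected genes, Cdkn2d was found in 4 of 14 cells labelled knockout with and 0 of 41 without these transcripts. In these deeper cells, Cdkn1b was found in 39 of 41 cells labelled knockout and 35 of 40 wild-type cells without the transcripts. With them, it was found in 14 of 14 and 7 of 7. No cycling is read from these counts.

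**Figure D4:**
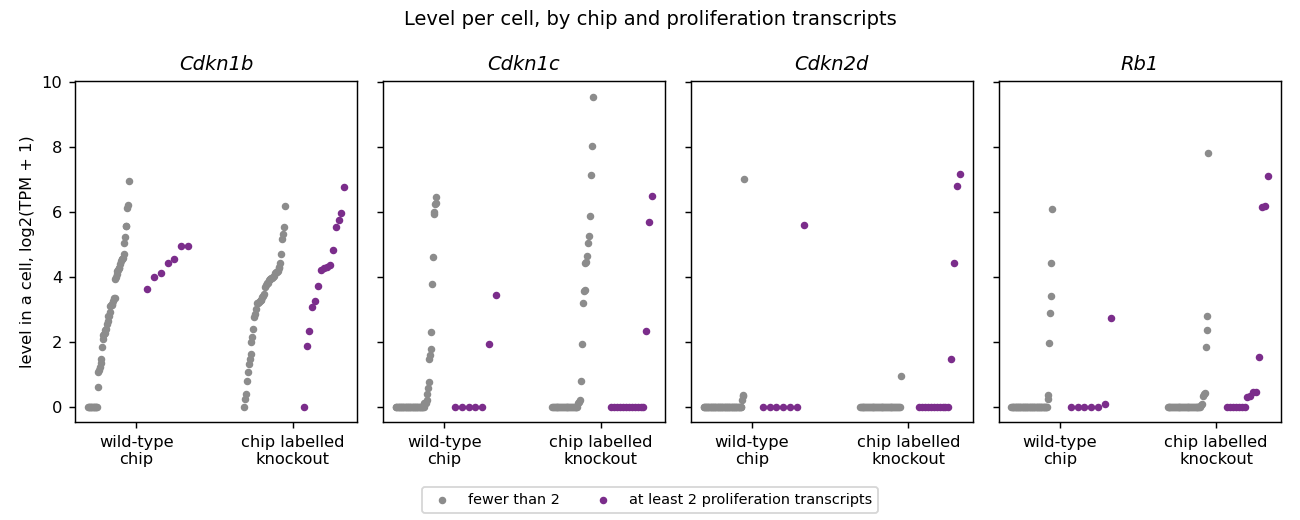
Level of 4 genes in each cell, as log2(TPM + 1) on the vertical axis, by chip, with purple points for cells with at least 2 proliferation transcripts and grey points for the others. The 4 cells labelled knockout with Cdkn2d at TPM of at least 1 are all purple, whereas Cdkn1b is spread over both colours.

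Members were seldom found together, apart from pairs with Cdkn1b. On the chip labelled knockout, 16 cells had Cdkn1c, 7 Cdkn2c, 4 Cdkn2d and 6 Rbl1, and no cell had Cdkn1c with any of the other 3. Cdkn2d and Rb1 were found together in 3 of the 4 cells with Cdkn2d, which were 3 of the 8 cells with Rb1. In wild type, Cdkn1c and Cdkn2c were found together in 2 of 13 and 2 of 4 cells. With so few positive cells these counts are a description.

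Pathway genes in single cells were summarised by size. Of 10 G1 cyclins and kinases with enough cells, 9 were higher in cells labelled knockout and 4 passed the size threshold, against 8.03% of all genes called higher. Ccnd1 was found on the wild-type chip in 45.5% and on the other in 68.9% of cells, a difference of 1.25 in mean log2(TPM + 1). Ccnd2 differed by 1.22 and Cdk6, a kinase that INK4 proteins . All 10 E2F target genes with enough cells were higher and 2 passed by size, against the same 8.03%. Pcna was found in 33.3% and 57.4% of cells, in the same order of chips (difference 1.65), and Rrm1, a subunit of ribonucleotide reductase, in 3.03% and 19.7% (1.07). Of 5 E2F and DP factors and 4 MuvB and DREAM subunits, none passed. All of these stand beside the median of 0.25 over all genes.

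Cdkn1b ranked differently in the 2 assays. Its mean over the 6 bulk libraries was 2.07 FPKM, the lowest of the 8 measured members, whereas it was found in 84.3% of the 127 cells, the highest share. Among the 1568 other genes within 1.5-fold of its bulk level, the median share of cells was 3.94%, and 8 genes were found in as many cells or more. Cdkn1b thus stood above 99.5% of these genes, and above 99.2% and 99.6% when each chip was taken alone. The remaining members lay within the range of their bulk neighbours: Cdkn1c stood above 53.4% of genes of like bulk level, Rb1 above 49.9%, Rbl1 above 41.4%, Cdkn2c above 40.8%, Cdkn2b above 39.3%, Rbl2 above 29.7% and Cdkn2d above 17.7%. With detection at TPM of at least 10, Rbl2 moved to 49.5% and Cdkn2d to 36.5%, so the order among these members depends on the detection limit. The tables come from different pipelines and cells, and the cause of the Cdkn1b difference was not tested.

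**Figure D5:**
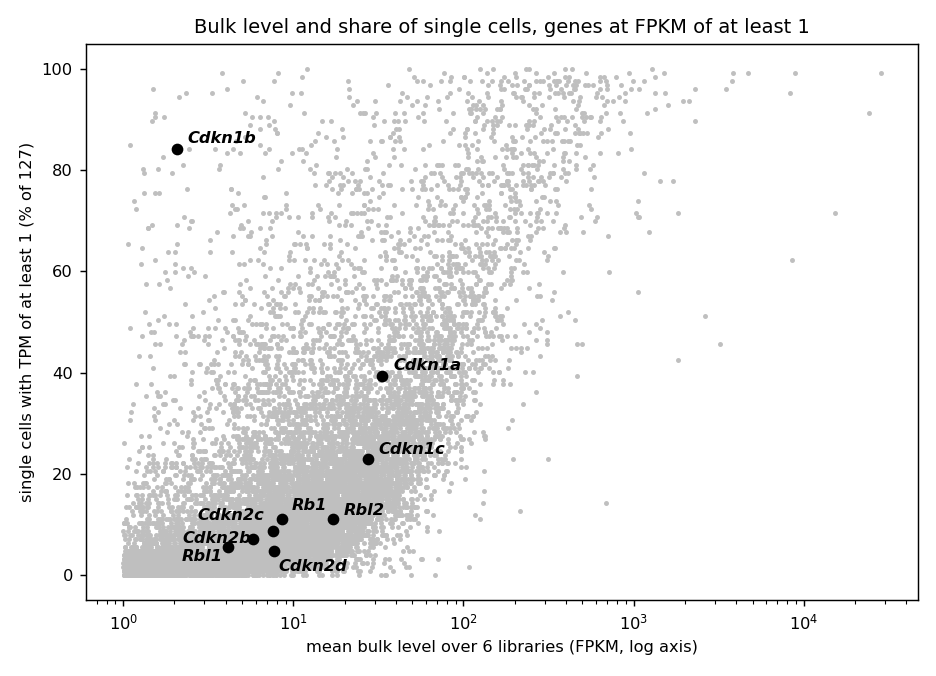
Mean bulk level over 6 libraries (horizontal log axis, FPKM) against the share of 127 single cells with TPM of at least 1 (vertical axis, %), for genes at FPKM of at least 1, with members and Cdkn1a as labelled black points. Cdkn1b lies at 2.07 FPKM and 84.3% of cells, far above genes of like bulk level, and the other members lie within the cloud.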

How the data were processed

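Bulk levels are FPKM, deposited by the authors; TopHat, Bowtie2, Cufflinks and the build mm10 are named in the submitters' processing notes. Single-cell levels are TPM, deposited by the authors; RSEM 1.2.20, Bowtie 1.1.1 and GRCm38 are named there. Read depth per library cannot be had from FPKM or TPM. Groups came from the sample labels; the column of wild-type library 6 lacks a prefix that the other 5 bulk columns share. Bulk genes needed FPKM of at least 1 in 3 of 6 libraries, and 12 genes with marked entries were left out. log2(FPKM + 1) was fitted with limma 3.58.1 (R 4.3.3, trend and robust); p-values were two-sided and adjusted by Benjamini and Hochberg over 11957 genes. The exact permutation tests were two-sided. Single cells were described with Python 3.11.15 and SciPy 1.17.1, with exact binomial intervals for shares and Newcombe intervals for differences. Wells with a debris or valve remark (1 wild type, 3 labelled knockout), 6 and 3 cells with few genes, and the off-chip controls were left out. No column matched 2 further samples labelled knockout, which were not analysed here. No 2 kept cells had a correlation above 0.722. The scripts were tested on simulated data. The members and lists were chosen with earlier results of these data known. Named genes were all members, Trp53, Cdkn1a, up to 4 genes of each pathway list by smallest bulk p, up to 3 by largest single-cell difference, and 2 most like genes per member; of these, the text gives a selection. Alternatives were other pseudocounts, scalings, filters, library weights, detection limits and left-out libraries.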

Additional observations from a re-analysis of the deposited data

Results flagged for a closer look

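The off-chip positive control of the chip labelled knockout belongs to no comparison above. In it 8 of the 9 genes had a TPM above 0, and they were at 0 in the off-chip negative control. The positive control had 7953 genes at TPM of at least 1. Cdkn1b was at 8.58 TPM, the highest of the 9, followed by Cdkn1c at 6.46, Rbl2 at 5.42 and Cdkn2d at 2.69. Cdkn2c was at 0.78 TPM, Cdkn2b at 0.61, Rbl1 at 0.6 and Rb1 at 0.53, all below the TPM of 1 used for detection in cells. Cdkn2a was at 0, as in every cell. The place of Cdkn1b at the top of this single control, and at the bottom of the measured members in bulk, was not tested for a cause. Groups of 3 libraries are too small for the check of single outlying samples.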

How the results depend on the processing

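Cdkn1c kept its direction in all 13 alternatives, between 0.47 and 0.70, and Cdkn1b, Cdkn2c, Cdkn2d and Rbl2 kept theirs. With library weights estimated by limma, Cdkn1c passed the adjusted test (0.65, adjusted p = 0.0176) and so did Cdkn2d (-0.52, adjusted p = 0.0284), while Cdkn2b turned to 0.0082 and Rb1 to 0.077. Quantile normalization turned Rbl1 to -0.015. Over the alternatives the adjusted p of Cdkn1c ranged from 0.0176 to 0.702 and that of Cdkn2d from 0.0284 to 0.782. Leaving out each library in turn gave 0.53 to 0.70 for Cdkn1c, -0.22 to 0.030 for Cdkn2b, -0.090 to 0.12 for Rb1 and -0.036 to 0.10 for Rbl1. The count of genes past the adjusted threshold, 1 with all libraries, was 2 with a pseudocount of 0.1 FPKM, 0 with 10 FPKM, 6 after rescaling to one sum and 913 with library weights (654 higher, 259 lower); with a library left out it was 1 to 408, and the highest came without wild-type library 1. The cause was not tested. In single cells, counting any TPM above 0 moved the wild-type state difference of Rbl2 to 8.64 points from -5.64, and counting cells with at least 1 proliferation transcript moved that of Cdkn1c in wild type to -14.1 points from 9.93. With a size threshold of 2, 56 genes differed between chips instead of 775. Among 168 alternative values for shares, 166 stayed within the interval of the value above. Chosen after seeing the data were the comparisons without the highest cell or wild-type library 1 for overlap, in deeper cells, and with wider bulk windows or a TPM of at least 10. No paired analysis was possible because the bulk groups share no replicate number.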

Other observations

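Other genes near Cdkn1b in bulk level were also found in most cells. The 8 genes within 1.5-fold of its bulk level that were found in as many cells or more were H2-DMb2 (96.1% of cells), Kcnmb4 (95.3%), 1700120C14Rik (94.5%), Pbld2 (91.3%), Mbd4 (90.6%), Tnfrsf10b (90.6%), Zfp229 (89.8%) and Slx1b (84.3%). They were chosen after their values were seen. With genes within 2-fold of its bulk level, Cdkn1b stood above 99.5% of them, and with detection at TPM of at least 10, above 99.4%.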
